A study of Mus musculus with 4 samples.

Results

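Transforming growth factor beta (TGF-beta) signalling was followed in embryonic mouse lung through 8 genes, chosen by symbol from the 20674 genes listed. They were the ligand genes Tgfb1, Tgfb2 and Tgfb3, the receptor genes Tgfbr1, Tgfbr2 and Tgfbr3, and the response genes Tgfbi and Smad7. Each symbol matched 1 gene ID, which was listed in all 4 libraries. TGF-beta ligands are secreted in a latent form, held by their own propeptide and by latent TGF-beta binding proteins in the matrix, and are freed by integrins and proteases. The active dimer binds the type II receptor (Tgfbr2), which phosphorylates the type I receptor (Tgfbr1), and SMAD2 and SMAD3 then carry the signal to the nucleus with SMAD4. In the lung the pathway is known for its part in branching, in the making of myofibroblasts and smooth muscle, and in matrix deposition.

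The cells came from C57BL/6 embryos. The E16.5 library held fibroblasts from 1 lung, sorted for an αSMA-GFP reporter together with tdTomato from Rosa26 switched on by Tbx4-Cre, a gate for cells with a history of Tbx4 expression and an active smooth muscle actin reporter. After doublet removal it still held 30 AT2-like, 19 endothelial and 7 erythroid cells beside 2997 mesenchymal ones. The E17.5 libraries held live cells from 3 lungs labelled wild type (WT1, WT2 and WT3, called lung 1, lung 2 and lung 3 below). Red cell lysis is part of the protocol given for all 4 samples. No agent or deletion was part of either group, and age, the fibroblast gate and genotype (reporter and Cre alleles against wild type) differed together between the 2 groups, so that they cannot be told apart. Whether the 3 lungs came from separate litters is not stated. The p-values measure only how far class differences vary between these 3 lungs, with that spread pooled largely over genes.

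The libraries held 3085 cells at E16.5 and 2682, 2140 and 2657 cells at E17.5, with medians of 12007, 7979, 8493.5 and 7201 UMIs (counted molecules) per cell. Called doublets made up 1.04 to 1.59% and were removed, and 7 to 13 cell barcodes were shared between any pair of libraries. Clusters were formed without the 8 genes and named from marker lists, with the ending "-like" because no label gives a cell type. Of the 7381 lung cells kept, 1861 were epithelial, 1368 endothelial, 1939 mesenchymal, 2181 immune and 32 mesothelial, and 13 finer classes had at least 20 cells in each lung. The lung mesenchyme held matrix fibroblast-like (1070 cells), myofibroblast-like (463), pericyte-like (194) and 212 further cells. Those 212 cells scored best for adventitial markers, but smooth muscle genes (Tagln, Acta2) stood among their leading genes beside Col1a1, so they are called the Col1a1/Tagln class here. The alveolar classes are named after the flat gas exchange cell (AT1-like, 878 cells) and the surfactant cell (AT2-like, 876 cells). Levels are given as CPM, the usual scaling of a gene's UMIs by all UMIs of the same cell, averaged over the cells of a class.

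Among the 4 large compartments, leaving out the 32 mesothelium cells, each ligand gene had its highest level in a different one (the plot of ligand levels by class). Tgfb1 was mainly an immune and endothelial transcript, Tgfb2 mainly an epithelial one with its highest level in AT1-like cells, and Tgfb3 mainly a mesenchymal one. Of the Tgfb1 UMIs in the lungs, 55.3% ± 6.25 (SD, n = 3) came from immune cells and 28.9% ± 6.07 from endothelium. Epithelium gave 67.0% ± 3.39 of the Tgfb2 UMIs and mesenchyme 26.8% ± 3.44. Mesenchyme gave 55.2% ± 7.62 of the Tgfb3 UMIs and epithelium 33.6% ± 4.64. For comparison, these compartments held 27.3% (immune), 16.49% (endothelium), 32.4% (epithelium) and 23.4% (mesenchyme) of all UMIs, as the plot of UMI shares shows.

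**Figure D1:**
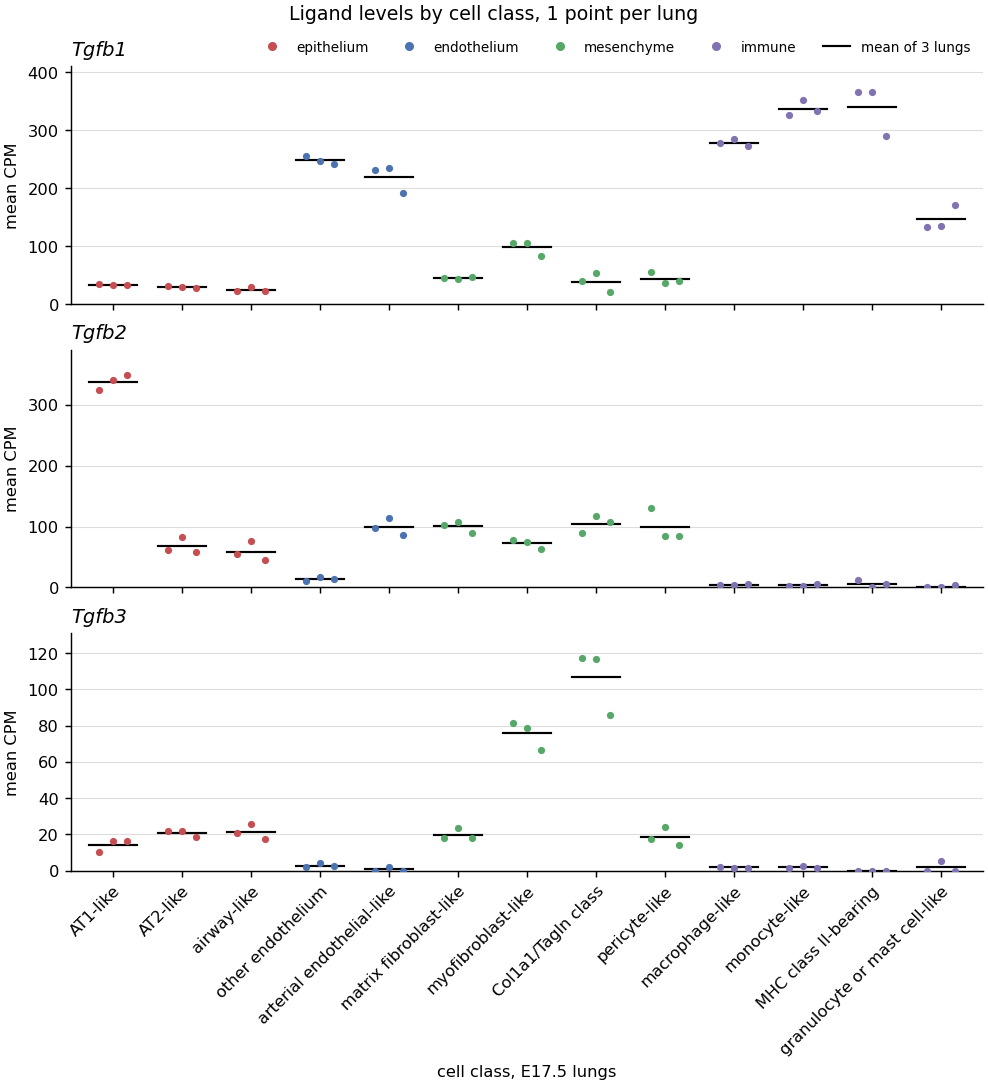
Mean CPM of the ligand genes (vertical axes, linear) in 13 cell classes of the E17.5 lungs (horizontal axis), with 1 point per lung, a bar at the mean of 3 lungs and colours for the compartments. Tgfb1 is highest in immune and endothelial classes, Tgfb2 in AT1-like cells (mean 338 CPM) and Tgfb3 in the Col1a1/Tagln class (107 CPM) and myofibroblast-like cells (75.7 CPM).

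**Figure D2:**
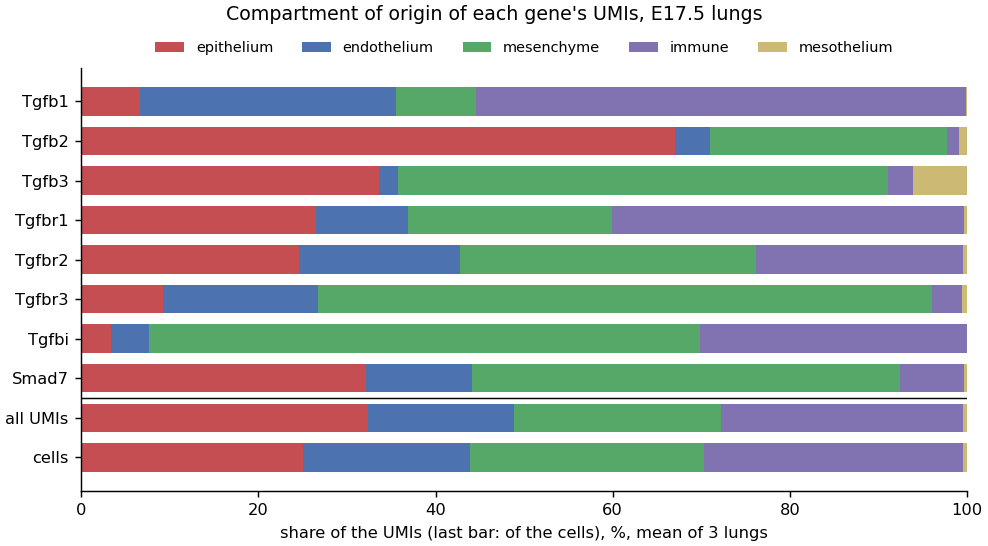
Share of each gene's UMIs that came from each compartment (horizontal bars, %, mean of 3 lungs), above the line for the 8 genes and below it for all UMIs and for cells. Epithelium holds 67.0% of the Tgfb2 UMIs, and mesenchyme holds 69.3% of the Tgfbr3 and 62.3% of the Tgfbi UMIs.

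Tgfb1 encodes the isoform best known for restraining immune cells and driving fibrosis. Its level in immune cells was 287, 301 and 285 CPM in lungs 1, 2 and 3, and in endothelium 253, 246 and 237 CPM. In epithelium it was 31.9, 31.0 and 29.7 CPM and in mesenchyme 60.6, 56.8 and 51.9 CPM. All 3 lungs gave the same order of the 4 compartments, with no overlap between any of them. Against the mean of the other compartments, Tgfb1 was higher by 1.77 ± 0.05 (SE) in immune cells and by 1.45 ± 0.05 in endothelium, as log2 differences of CPM plus 10 (adjusted p = 4.2e-23 and 6.0e-21, limma with Benjamini-Hochberg adjustment over all genes tested). It was lower in epithelium, where the log2 difference was -2.07, and in mesenchyme, where it was -1.14 (adjusted p = 2.0e-24 and 1.8e-18, limma).

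Among finer classes, Tgfb1 was highest in MHC class II-bearing cells (366, 365 and 290.3 CPM) and monocyte-like cells (325, 352 and 333 CPM), whose ranges overlapped. Macrophage-like cells followed at 277, 285 and 272 CPM, below the monocyte-like range in every lung. The macrophage-like class was made of clusters led by Ear2 and of 1 cluster of 200 cells led by the complement genes C1qa, C1qb and C1qc, and the latter had 407, 400.5 and 431 CPM. In endothelium the level was 231, 234 and 192 CPM in arterial endothelial-like cells and 255, 247 and 242 CPM in the other endothelium, lower in the former in every lung and without overlap. Within mesenchyme the myofibroblast-like cells stood out, with 105, 105 and 83.2 CPM, while the other 3 classes had means from 38.1 to 44.9 CPM.

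Free RNA from other cells can give UMIs in cells that do not express a gene, so levels were set beside those of marker genes of the source cells. The summed level of 7 immune marker genes in AT1-like, AT2-like and matrix fibroblast-like cells was 2.12 to 2.74% of that in immune cells. Tgfb1 in the same 3 classes was 9.73 to 16.4% of its immune level, and in myofibroblast-like cells 29.2 to 36.7%, beside 1.97 to 2.41% for the immune markers. No immune marker was at 0 in these 4 classes. In pericyte-like cells Tgfb1 was 11.9 to 19.1% of its immune level beside 2.44 to 3.98% for the markers, and in the Col1a1/Tagln class 7.08 to 17.9% beside 2.27 to 3.18%. The shares were nearest to each other in airway-like cells, at 7.66 to 9.65% for Tgfb1 and 2.37 to 5.31% for the markers. Markers of endothelium, the other main source of Tgfb1, were present too, so the immune markers cover only part of the possible free RNA. The 8 endothelial markers summed to 116 to 197 CPM in AT1-like, 164 to 242 CPM in matrix fibroblast-like and 211 to 277 CPM in myofibroblast-like cells. In the other endothelium they summed to 7824 to 8308 CPM. The part of free RNA from either source in these levels was not tested further.

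Tgfb2 encodes the isoform that mouse knockouts tie to heart, skeletal and craniofacial development. Its level in AT1-like cells was 324, 342 and 349 CPM, against 62.0, 82.1 and 57.7 CPM in AT2-like cells. These ranges were far apart, and the ratio of the classes was 4.16 to 6.05 in the 3 lungs. The log2 difference between AT1-like and AT2-like cells was 2.19 ± 0.08 (adjusted p = 3.9e-16, limma). Airway-like cells had 54.9, 76.1 and 45.7 CPM and overlapped AT2-like cells. At an equal 2000 UMIs per cell, a Tgfb2 UMI was found in 46.5% ± 4.08 of AT1-like cells and in 0.942% ± 0.497 of macrophage-like cells (84.3 and 3.17% before thinning, with median depths per lung of 7701 to 9737 and of 6811 to 7675 UMIs, and no cell left out).

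The AT2-like class was itself mixed for this isoform. Its larger cluster (527 cells, led by Cxcl15, Sftpa1 and Lyz1) had 42.2, 40.6 and 33.2 CPM of Tgfb2, and its smaller one (349 cells, led by Sftpc, Mia and Bex4) had 94.0, 125 and 102 CPM. The same split was seen for Tgfb3, at 14.98, 10.4 and 11.1 CPM against 33.5, 33.7 and 31.4 CPM, and in both genes the 2 clusters did not overlap. In AT1-like cells 2 clusters of 493 and 309 cells had 356 and 349.7 CPM of Tgfb2. A further cluster, of 35 cells with a median of 3211 UMIs, had 26.5, 83.3 and 78.8 CPM from 9 UMIs in all.

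Outside epithelium, Tgfb2 was spread over mesenchyme and 1 endothelial class. Matrix fibroblast-like cells had 102, 108 and 90.2 CPM, pericyte-like cells 131, 84.5 and 85.0 CPM and myofibroblast-like cells 78.2, 75.1 and 63.2 CPM. Arterial endothelial-like cells, marked by Gja4 and Sox17, had 98.4, 114 and 86.1 CPM, while the other endothelium had 10.8, 16.7 and 13.2 CPM. The endothelial classes were thus 6.54 to 9.10 times apart, with no overlap, and this contrast was not among those tested. In the tests, Tgfb2 was higher in epithelium (log2 difference 2.53 ± 0.07) and mesenchyme (1.22 ± 0.07) and lower in endothelium (-1.08) and immune cells (-2.66), each with an adjusted p of 1.65e-14 or less in limma. In macrophage-like and monocyte-like cells it was at 0.925 to 2.92% of its epithelial level, beside 2.44 to 3.05% for the summed epithelial markers. Within mesenchyme, myofibroblast-like cells were lower than the rest by a log2 difference of -0.43 (adjusted p = 0.0060, limma), a call lost at the finer clustering. There smooth muscle-like cells form a further class among the rest, so the contrast differs.

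Tgfb3 encodes the isoform needed for palate fusion and, in mice, for normal lung maturation. The Col1a1/Tagln class had 117, 117 and 86.1 CPM and the myofibroblast-like class 81.4, 79.0 and 66.8 CPM. Matrix fibroblast-like cells had 18.0, 23.5 and 18.3 CPM and pericyte-like cells 17.7, 24.3 and 14.0 CPM. The mesenchyme therefore fell into a high and a low pair of classes that did not overlap, whereas the low pair overlapped with airway-like (21.2 CPM on average) and AT2-like cells (20.8 CPM). Within mesenchyme the log2 differences from the other classes were 1.47 ± 0.13 in the Col1a1/Tagln class, 0.89 ± 0.13 in myofibroblast-like, -1.13 ± 0.13 in matrix fibroblast-like and -1.23 ± 0.13 in pericyte-like cells (adjusted p = 1.5e-09, 4.6e-06, 1.2e-07 and 1.8e-08, limma). Over compartments Tgfb3 was higher in mesenchyme (log2 difference 1.71 ± 0.07, adjusted p = 6.4e-19, limma) and, less so, in epithelium (0.49 ± 0.07, adjusted p = 2.0e-07, limma). Endothelial cells carried 24 and immune cells 31 of its UMIs in all, and none was counted in MHC class II-bearing cells. The AT1-like level lay below the AT2-like one (log2 difference -0.34, adjusted p = 0.032, limma), a call lost without lung 1 (-0.18) and at either other clustering resolution.

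The 32 mesothelium cells, led by Upk3b, were few and uneven (15, 1 and 16 cells) and entered no test. They had 325 and 210.4 CPM of Tgfb3 in lungs 1 and 3, from 71 UMIs over the 3 lungs, above every other class. They held 0.408% of the cells and 6.15% of the Tgfb3 UMIs. Their Tgfb2 level was 221 and 135 CPM in the same lungs.

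The Col1a1/Tagln class came apart at a finer clustering resolution into 121 adventitial-like cells (led by Col1a1, Agtr2 and Eln) and 91 smooth muscle-like cells (led by Tagln, Acta2 and Eln). Tgfb2 then divided with them, at 46.4, 68.2 and 45.8 CPM in adventitial-like and 134, 204 and 188 CPM in smooth muscle-like cells. Tgfb3 was in both, at 183, 118 and 79.8 CPM and at 49.6, 115 and 94.5 CPM, with overlapping ranges. Tgfbr2 went the other way, with 79.0, 106 and 65.5 CPM in adventitial-like and 19.3, 22.7 and 15.4 CPM in smooth muscle-like cells, again without overlap. Each of these values rests on 17 to 144 UMIs over the 3 lungs.

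The receptor genes differed in how widely they were spread (the plot of receptor levels by class). Tgfbr2, the ligand-binding type II receptor, was detected in all 13 classes with means from 16.3 to 66.7 CPM, a 4.08-fold range. Tgfbr1, the type I receptor kinase also called ALK5, ranged over 3.95-fold, from 13.4 to 53.1 CPM. Tgfbr3, the co-receptor betaglycan, which presents the Tgfb2 isoform to the type II receptor, was concentrated in 1 class.

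**Figure D3:**
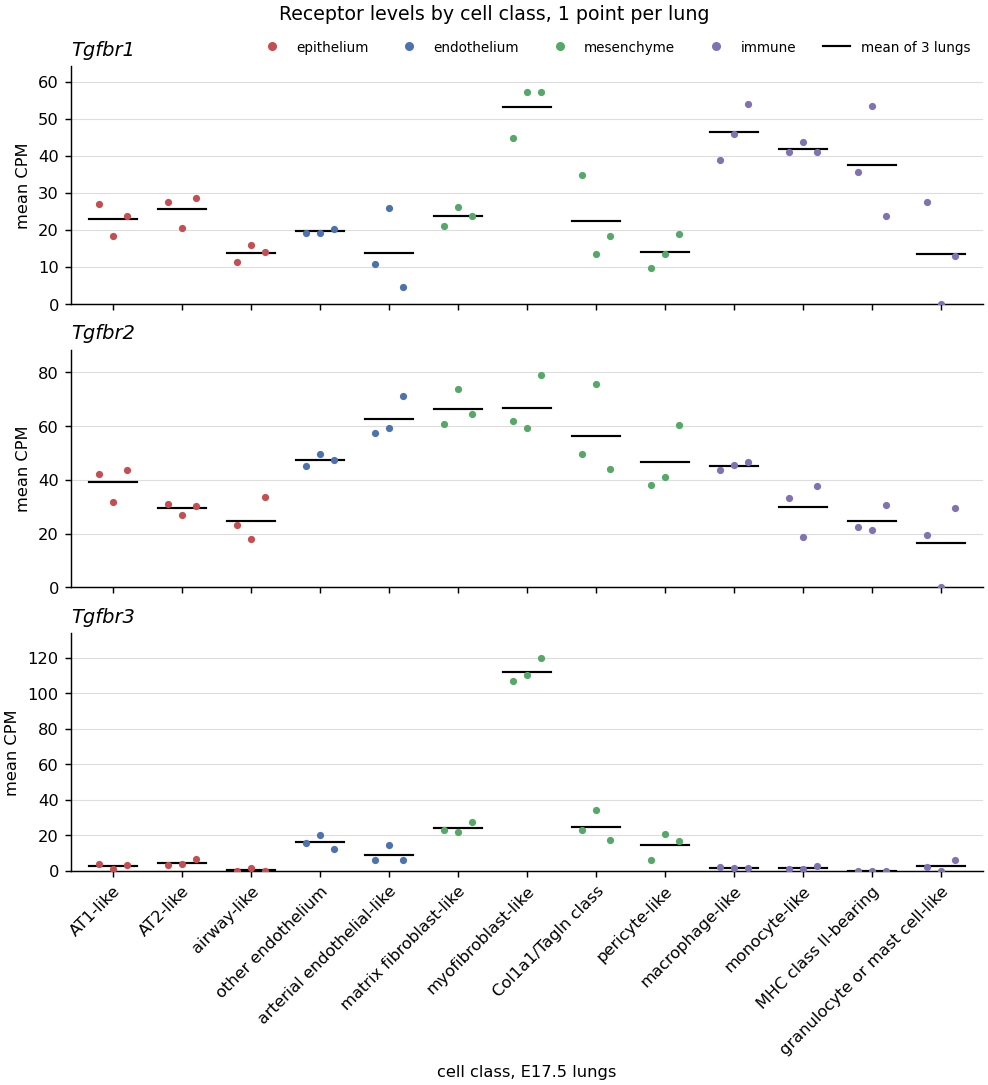
Mean CPM of the receptor genes (vertical axes, linear) in 13 cell classes of the E17.5 lungs (horizontal axis), with 1 point per lung and a bar at the mean of 3 lungs. Tgfbr1 and Tgfbr2 are present in every class, and Tgfbr3 stands at 107 to 119.5 CPM in myofibroblast-like cells against at most 34.0 CPM in any other class.

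For Tgfbr3, myofibroblast-like cells had 107, 110.1 and 119.5 CPM. The Col1a1/Tagln class had 22.9, 34.0 and 17.4 CPM and matrix fibroblast-like cells 22.8, 22.1 and 27.2 CPM. No other class reached the lowest myofibroblast-like lung. This class gave 38.7% ± 2.86 of the Tgfbr3 UMIs from 5.00% of all UMIs. Against the rest of the mesenchyme the log2 difference was 2.02 ± 0.17 (adjusted p = 2.0e-10, limma). Pericyte-like cells were lower, at 6.25, 20.6 and 16.7 CPM (log2 difference -1.14 ± 0.17, adjusted p = 3.4e-06, limma). Over compartments, mesenchyme was higher by 1.79 ± 0.08 (adjusted p = 2.1e-17, limma), and epithelium and immune cells had 3.37 and 1.51 CPM on average, lower by -0.91 and -1.19 on the log2 scale (adjusted p = 6.2e-11 and 1.1e-13, limma). The endothelial difference was 0.31 (adjusted p = 0.0011, limma), although its mean of 15.3 CPM was below the 16.4 CPM mean of the others on the linear scale, and the call was lost without lung 2 (0.16). Tgfbr3 was also called lower in matrix fibroblast-like cells (log2 difference -0.44, adjusted p = 0.047, limma), but leaving out any 1 lung ended that call (-0.28 without lung 2 to -0.53 without lung 1).

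By class, Tgfbr1 was highest in myofibroblast-like cells (44.8, 57.2 and 57.3 CPM) and macrophage-like cells (39.0, 45.9 and 54.1 CPM), whose ranges overlapped. The macrophage-like class was uneven, since its C1q-led cluster of 200 cells had 54.97, 101 and 113 CPM, above myofibroblast-like cells in every lung, and its larger clusters averaged 41.2 and 38.3 CPM. Monocyte-like cells had 41.0, 43.6 and 41.1 CPM, and AT1-like cells 26.9, 18.4 and 23.6 CPM. Immune cells were higher than the other compartments by a log2 difference of 0.67 ± 0.07 and endothelium lower by -0.51 ± 0.07 (adjusted p = 2.4e-09 and 4.0e-07, limma). For mesenchyme as a whole the difference was 0.08 ± 0.07 (adjusted p = 0.35, limma). Its subclasses, however, parted: myofibroblast-like cells were higher by 1.11 ± 0.18 and pericyte-like cells, at 9.60, 13.5 and 18.9 CPM, lower by -0.77 ± 0.18 (adjusted p = 2.1e-05 and 0.0013, limma). The epithelial difference of -0.23 (adjusted p = 0.0058, limma) lost its call without lung 2 (-0.12).

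For Tgfbr2 each class overlapped the next in order of level. Myofibroblast-like cells had 62.0, 59.1 and 78.9 CPM, matrix fibroblast-like cells 60.6, 73.6 and 64.6 CPM and arterial endothelial-like cells 57.5, 59.1 and 71.2 CPM. At the other end, granulocyte or mast cell-like cells averaged 16.3 CPM from only 9 UMIs, and airway-like cells had 23.3, 17.8 and 33.5 CPM. Mesenchyme was higher than the other compartments by 0.55 ± 0.06 on the log2 scale and epithelium lower by -0.45 ± 0.06 (adjusted p = 1.9e-08 and 5.3e-07, limma). The immune difference of -0.22 (adjusted p = 0.0032, limma) changed sign under a median-of-ratios scaling (0.043) and in edgeR on summed UMIs (0.016). AT1-like cells had 42.1, 31.8 and 43.7 CPM against 30.9, 27.1 and 30.4 CPM in AT2-like cells, without overlap (log2 difference 0.31, adjusted p = 0.019, limma), and this call was lost without lung 1 (0.29) or lung 3 (0.26). The AT1-like clusters differed: that of 309 cells had 72.8, 57.8 and 63.5 CPM, and that of 493 cells had 31.0, 20.9 and 29.3 CPM, the latter overlapping AT2-like cells. The pericyte-like difference of -0.37 (adjusted p = 0.041, limma) was lost without lung 1 (-0.32) or lung 2 (-0.25).

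Tgfbi, named for its induction by TGF-beta, encodes a secreted matrix protein that binds integrins and collagens. Myofibroblast-like cells held it at 2775, 2939.8 and 3118 CPM. Macrophage-like cells followed at 298, 319 and 315 CPM and monocyte-like cells at 284, 247 and 284 CPM. Other mesenchymal classes were far lower, with 71.96, 69.0 and 60.4 CPM in matrix fibroblast-like and 12.4, 14.6 and 23.2 CPM in pericyte-like cells. The ratio of myofibroblast-like to matrix fibroblast-like cells was 38.6 to 51.6 in the 3 lungs. Myofibroblast-like cells thereby gave 56.7% ± 1.503 of the Tgfbi UMIs and immune cells 30.1% ± 3.48. At 2000 UMIs per cell, a Tgfbi UMI was found in 95.6% ± 1.55 of myofibroblast-like cells and 3.66% ± 2.49 of AT1-like cells (99.1 and 14.3% before thinning, with median depths per lung of 6271.5 to 7689 and of 7701 to 9737 UMIs).

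**Figure D4:**
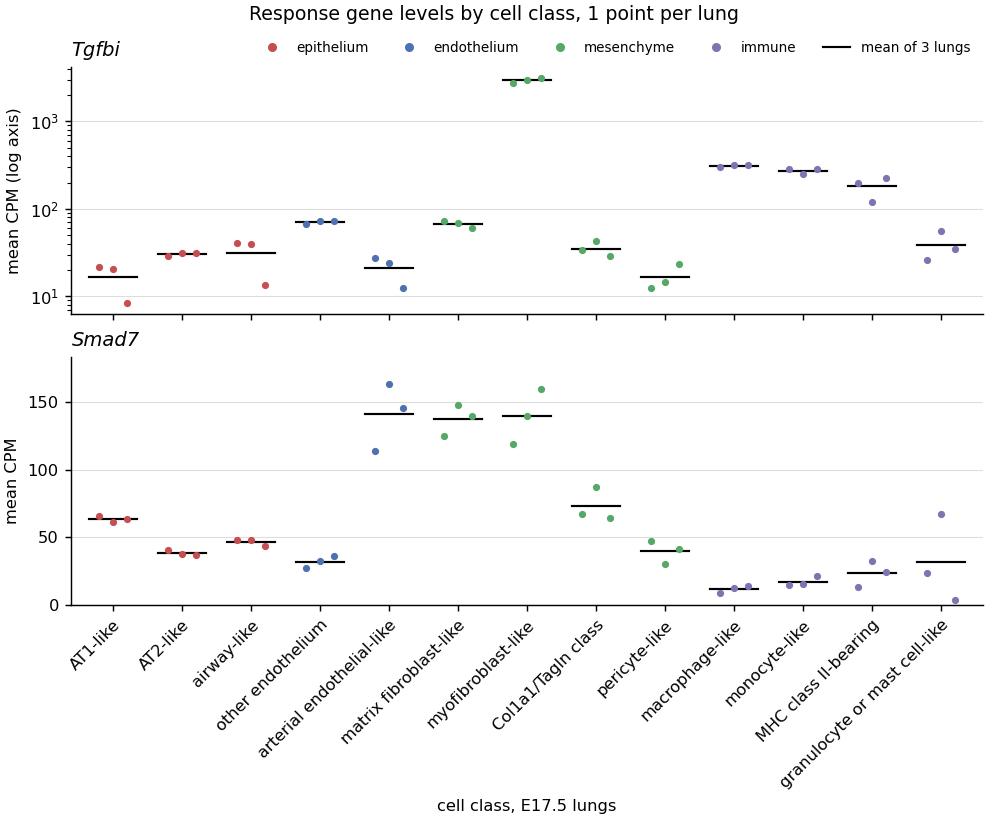
Mean CPM of Tgfbi (vertical axis, logarithmic) and Smad7 (vertical axis, linear) in 13 cell classes of the E17.5 lungs (horizontal axis), with 1 point per lung and a bar at the mean of 3 lungs. Tgfbi reaches 2775 to 3118 CPM in myofibroblast-like cells, and Smad7 is highest in arterial endothelial-like, myofibroblast-like and matrix fibroblast-like cells.

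The log2 difference of Tgfbi in myofibroblast-like cells from the rest of the mesenchyme was 6.04 ± 0.11, and in pericyte-like cells -3.04 ± 0.11 (adjusted p = 1.4e-23 and 1.7e-17, limma). For the compartments it was 3.04 ± 0.06 in mesenchyme, 1.24 ± 0.06 in immune cells, -1.36 ± 0.06 in endothelium and -2.92 ± 0.06 in epithelium (adjusted p of 1.1e-17 or less in each, limma). In macrophage-like cells Tgfbi stood at 10.1 to 10.8% of its myofibroblast-like level, beside 1.46 to 2.07% for the 8 summed myofibroblast markers. The matrix fibroblast-like level was uneven, since 1 cluster of 118 cells led by Tcf21, Nexn and the histone gene Hist1h2ap had 529, 576 and 254 CPM, and the other 952 cells had 20.0, 20.8 and 28.4 CPM. That cluster also had 681 CPM of summed myofibroblast markers against 247 CPM in the larger one, and 1504 against 62.4 CPM of 5 cell cycle genes. Its matrix fibroblast markers summed to 2488 CPM, against 4616 CPM in the larger one. Whether these had a part in its Tgfbi level was not tested. The lower call for matrix fibroblast-like cells (log2 difference -0.98, adjusted p = 1.5e-07, limma) was lost in edgeR on summed UMIs (-0.25). The classes it was set against included myofibroblast-like cells. The matrix fibroblast-like mean of 67.1 CPM lay above those of the Col1a1/Tagln class (35.1 CPM) and of pericyte-like cells (16.7 CPM). AT1-like cells lay below AT2-like cells (-0.64, adjusted p = 0.00062, limma), a call lost without lung 3 (-0.37). Both levels were near those of the myofibroblast markers as a percentage of the myofibroblast-like level. In AT1-like cells Tgfbi was at 0.270 to 0.774% beside 1.03 to 1.38% for the markers. In AT2-like cells it was at 1.01 to 1.06% beside 0.616 to 0.656%. The part of free RNA in this difference was not tested.

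Promoter sequences were compared for Tgfb1, Tgfb2 and Tgfbi because these genes peaked in different classes (immune, AT1-like and myofibroblast-like cells). RefSeq promoter entries on GRCm38.p6 existed for 5 of the 8 genes. The 250 bases before the annotated start are printed 5′ to 3′ on the gene's strand, with capitals marking CAGAC or its reverse complement GTCTG, the short core of SMAD-binding elements.
Tgfb1 (chr7:25686752-25687001, plus strand): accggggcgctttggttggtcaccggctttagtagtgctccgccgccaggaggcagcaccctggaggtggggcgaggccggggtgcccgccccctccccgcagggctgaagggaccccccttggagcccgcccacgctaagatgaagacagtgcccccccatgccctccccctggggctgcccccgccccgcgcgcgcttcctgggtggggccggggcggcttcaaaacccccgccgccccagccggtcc
Tgfb2 (chr1:186705990-186706239, minus strand): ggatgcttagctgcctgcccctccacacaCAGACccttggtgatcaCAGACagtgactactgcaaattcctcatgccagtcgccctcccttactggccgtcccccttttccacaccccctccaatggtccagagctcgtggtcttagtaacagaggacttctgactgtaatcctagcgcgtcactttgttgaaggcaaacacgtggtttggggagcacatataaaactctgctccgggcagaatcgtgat
Tgfbi (chr13:56609336-56609585, plus strand): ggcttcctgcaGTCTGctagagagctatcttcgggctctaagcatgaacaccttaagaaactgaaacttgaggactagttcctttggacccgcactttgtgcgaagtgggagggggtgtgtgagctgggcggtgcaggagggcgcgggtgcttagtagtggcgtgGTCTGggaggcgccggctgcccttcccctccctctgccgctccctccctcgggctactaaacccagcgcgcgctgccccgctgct
The Tgfb1 stretch held 0 matches on either strand, and the Tgfb2 and Tgfbi stretches held 2 each, the nearest starting 204 and 85 bases before the start. At least 1 match was present in 42.2% of the 32851 promoter stretches of this length, so that its presence is common. The longer palindrome GTCTAGAC, which overlaps no CAGAC, was in 0.167% of stretches and in none of the 3. GC content was 75.2% for Tgfb1, 53.6% for Tgfb2 and 62.4% for Tgfbi.

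Smad7 is induced by TGF-beta and encodes an inhibitory SMAD that blocks the type I receptor. Arterial endothelial-like cells had 114, 164 and 145 CPM, myofibroblast-like cells 119, 139.8 and 159.8 CPM and matrix fibroblast-like cells 125, 148 and 139.6 CPM. The 3 classes overlapped one another and lay above all other classes at this clustering. At the finer one, smooth muscle-like cells had 86.7, 135 and 98.5 CPM, reaching into the range of these 3, and adventitial-like cells had 48.1, 60.3 and 37.7 CPM. Macrophage-like cells had the lowest mean, from 8.502, 12.0 and 13.9 CPM, and the other endothelium had 27.2, 32.5 and 36.2 CPM. Mesenchyme was higher than the other compartments by 1.63 ± 0.06 on the log2 scale and immune cells lower by -1.63 ± 0.06 (adjusted p = 7.3e-19 and 4.4e-19, limma). The summed level of 10 immediate early genes, which respond to handling and to many stimuli, was also higher in mesenchyme (12493, 12947 and 13589.5 CPM) than in any epithelial, endothelial or immune class (2106 to 8546 CPM). Within mesenchyme it was highest in matrix fibroblast-like cells (13697, 13991 and 14703 CPM) and had its lowest mean in pericyte-like cells (8752, 11052 and 8081 CPM). Myofibroblast-like cells had 10979, 12552 and 13592 CPM of it. The Col1a1/Tagln class, with a lower Smad7 mean of 72.8 CPM, had 12775, 10956 and 12593 CPM. Arterial endothelial-like cells, with the highest Smad7 mean, had 6232, 8546 and 4898 CPM. The part of the immediate early genes in the Smad7 differences was not tested. Within mesenchyme, matrix fibroblast-like and myofibroblast-like cells were higher by 0.80 ± 0.13 and 0.82 ± 0.13, and pericyte-like cells, at 47.6, 30.5 and 41.4 CPM, lower by -1.30 ± 0.13 (adjusted p = 1.3e-05, 8.1e-06 and 2.9e-09, limma). AT1-like cells had 65.8, 61.3 and 63.2 CPM against 40.9, 37.8 and 36.9 CPM in AT2-like cells (log2 difference 0.60 ± 0.09, adjusted p = 1.4e-05, limma). The small differences of epithelium (0.16) and endothelium (-0.16), with adjusted p of 0.029 and 0.026 in limma, were lost without lung 1 (0.06 and -0.13), and the endothelial one also without lung 2 (-0.14). On the linear scale the epithelial mean of 50.8 CPM was below the 58.9 CPM of the others.

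Over compartments most genes differed: 75.4% of the 4132 genes tested were called in epithelium, 79.2% in endothelium, 76.5% in mesenchyme and 86.1% in immune cells. Of the 8 genes, 8, 7, 7 and 8 were called, shares not far from that background, and they divided by direction. Epithelium had 3 higher and 5 lower (27.2 and 48.1% of all genes) and endothelium 2 and 5 (52.8 and 26.4%). Mesenchyme had 6 higher and 1 lower (41.2 and 35.2% of all genes) and immune cells 3 and 5 (28.8 and 57.3%). The median log2 difference of the 8 genes in mesenchyme was 1.42, beside 0.04 over all genes tested. Median-of-ratios scaling moved the all-gene median by -0.21 in endothelium, 0.24 in immune cells and -0.10 in mesenchyme. With it the share of calls that were higher went from 66.6 to 45.1% in endothelium, from 53.9 to 43.6% in mesenchyme, from 33.4 to 48.4% in immune cells and from 62.8 to 52.6% between AT1-like and AT2-like cells.

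Among mesenchymal subclasses the background was lower. In myofibroblast-like cells 6 of the 8 genes were called higher (Tgfb1, Tgfb3, Tgfbr1, Tgfbr3, Tgfbi and Smad7) and Tgfb2 lower, where 33.1% of 4030 genes were called (19.7% higher and 13.4% lower), with a median log2 difference of 0.98 for the 8 genes and 0.05 for all genes. In pericyte-like cells none was called higher and 6 lower, where 39.2% were called (20.5% higher and 18.7% lower), with medians of -0.95 and 0.02. In matrix fibroblast-like cells 1 was higher and 3 lower (27.6% of all genes called, 10.2% higher and 17.4% lower), and in the Col1a1/Tagln class 1 higher and 2 lower (25.5%, 11.1% higher and 14.4% lower). Tgfb1 was the second lower call there (log2 difference -0.56, adjusted p = 0.0078, limma), which was lost without lung 1 (-0.56) or lung 3 (-0.30). Between AT1-like and AT2-like cells 39.6% of 3670 genes were called (24.9% higher and 14.7% lower in AT1-like cells), and of the 7 genes tested 3 were higher and 2 lower in AT1-like cells. Tgfbr3 fell below the filter of 10 CPM there. Of 71 tests of these genes, 55 passed, and 51 of the 71 kept their call and direction under every one of 15 alternatives that gave them a value (the filter at 50 CPM did so for 42). Some clustering alternatives returned a comparison unchanged and were no separate check of it, as the closing section describes.

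A further 34 genes of the pathway were examined by role: 12 of latency and activation, 3 related receptors, 3 signal transducers, 8 negative regulators and 8 response genes. All 34 were found. In mesenchyme 22 of the 29 tested were higher and 4 lower (41.2 and 35.2% of all genes), and their median log2 difference was 0.88, beside 0.04 over all genes. In epithelium 5 were higher and 21 lower (27.2 and 48.1% of all genes), in endothelium 12 and 14 (52.8 and 26.4%), and in immune cells 6 and 19 (28.8 and 57.3%). The response group had 7 of 8 genes higher in mesenchyme, led by the contractile gene Tagln (513, 565 and 694 CPM, log2 difference 5.27 ± 0.08, adjusted p = 2.3e-27, limma) and the matrix gene Postn (98.5, 149 and 114 CPM, 3.21 ± 0.09). Fibrillin-1 (Fbn1), which anchors latent complexes in microfibrils, was higher there by 3.02 ± 0.07.

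Genes that hold or free the latent ligand went both ways in endothelium and immune cells. Of the 9 tested, 2 were higher and 5 lower in endothelium (52.8 and 26.4% of all genes). In immune cells 3 were higher and 5 lower (28.8 and 57.3% of all genes). The lower ones included Thbs1 in endothelium (log2 difference -2.57 ± 0.06) and Ltbp4 in immune cells (-2.39 ± 0.07). Nrros, which tethers latent TGF-beta 1 on macrophages and microglia, was higher in endothelium (159.6, 137 and 145 CPM, log2 difference 2.66 ± 0.08, adjusted p = 1.2e-21, limma) and in immune cells (58.8, 68.8 and 59.1 CPM, 1.16 ± 0.08, adjusted p = 1.3e-13, limma), the compartments where Tgfb1 was also higher. Furin, a protease that cleaves the propeptide, was higher in immune cells (126, 153 and 139.6 CPM, 1.66 ± 0.06). The co-receptor gene Eng and Acvrl1, which encodes the type I receptor ALK1, were higher in endothelium by 3.17 ± 0.06 and 3.53 ± 0.07, and all 3 related receptors were called higher there.

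In AT1-like cells, where Tgfb2 was highest, Itgb6, the epithelial integrin subunit that activates latent TGF-beta, had 42.8, 45.1 and 56.7 CPM. In AT2-like cells it averaged 7.504 CPM (log2 difference 1.74 ± 0.13, adjusted p = 1.8e-10, limma). The TGF-beta-inducible cell cycle inhibitor Cdkn2b had 124, 115 and 118 CPM against a mean of 13.6 CPM (2.46 ± 0.10, adjusted p = 1.8e-15, limma), and the latent binding protein Ltbp4 was higher by 1.70 ± 0.10. Bambi, a pseudoreceptor that blocks signalling, was lower in AT1-like cells by a log2 difference of -1.18 ± 0.09. Also lower there were the response gene Tsc22d1 (-0.58 ± 0.05) and Thbs1 of the latency and activation group (-0.45 ± 0.09). Of the 20 pathway genes tested between the alveolar classes, 8 were higher, 4 lower and 8 not called (24.9% higher and 14.7% lower over all genes), with a median log2 difference of 0.03 beside 0.05 over all genes.

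Myofibroblast-like cells had 17 of 27 tested pathway genes higher and 2 lower (19.7 and 13.4% of all genes). These included 6 of 7 negative regulators and 5 of 8 genes of latency and activation. The latent binding protein gene Ltbp3 had 137, 158 and 151 CPM (log2 difference 1.89 ± 0.17, adjusted p = 6.1e-10, limma). The direction was not uniform, since Postn, a TGF-beta target, was lower (log2 difference -1.23 ± 0.13). Postn instead peaked in pericyte-like cells at 799, 897 and 863 CPM (3.95 ± 0.13, adjusted p = 8.4e-19, limma), where 15 of the 27 pathway genes were lower and 6 higher (18.7 and 20.5% of all genes). The Col1a1/Tagln class had 9 higher and 4 lower (11.1 and 14.4% of all genes). Those higher included Ltbp1 (52.9, 46.4 and 47.3 CPM, 1.42 ± 0.16) and Ltbp4 (283, 333 and 291 CPM, 0.98 ± 0.08). Matrix fibroblast-like cells had 2 higher, namely Thbs1, an activator of latent TGF-beta (450.4, 407 and 506 CPM, 1.22 ± 0.10), and Bambi (234, 226 and 247 CPM, 0.51 ± 0.11), and 14 lower (10.2 and 17.4% of all genes).

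At E16.5 the sort gave 1 library, so no test was possible, and a gene was called apart where it lay at least 2-fold beyond the highest or lowest of the 3 lungs. In all mesenchyme, 1 of the 8 genes was apart, Smad7 with 53.5 CPM in the sort against 111, 124 and 127 CPM in the lungs, where 8.5% of 8541 genes were apart (2.34% higher and 6.16% lower in the sort). The mix of classes differed, with 1055 pericyte-like and 444 matrix fibroblast-like of 2997 cells in the sort. The lungs had 194 and 1070 of 1939. By class, Smad7 was apart only in matrix fibroblast-like cells. The part of the mix in the mesenchyme-wide difference was not tested. Myofibroblast-like cells (1216 in the sort) had 2176 CPM of Tgfbi in the sort and 2775 to 3118 CPM in the lungs. There 1 gene was apart, Tgfbr3 with 48.9 CPM against 107, 110.1 and 119.5 CPM (7.13% of all genes apart, 2.24% higher and 4.89% lower). Its exact Poisson 95% interval from 665 UMIs, pooled over cells and covering counting error only, was 42.4 to 49.5 CPM. In matrix fibroblast-like cells (444 in the sort) 3 genes were apart, with 9.5% of all genes (4.26% higher and 5.24% lower): Tgfb1 (15.4 against 45.5, 42.6 and 46.7 CPM) and Smad7 (49.4 against 125, 148 and 139.6 CPM) were lower and Tgfb3 (47.1 against 18.0, 23.5 and 18.3 CPM) was higher. In pericyte-like cells (1055 in the sort) Tgfb1 was lower, with 14.9 against 54.8, 35.7 and 40.4 CPM (6.33% of all genes apart, 1.15% higher and 5.18% lower).

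**Figure D5:**
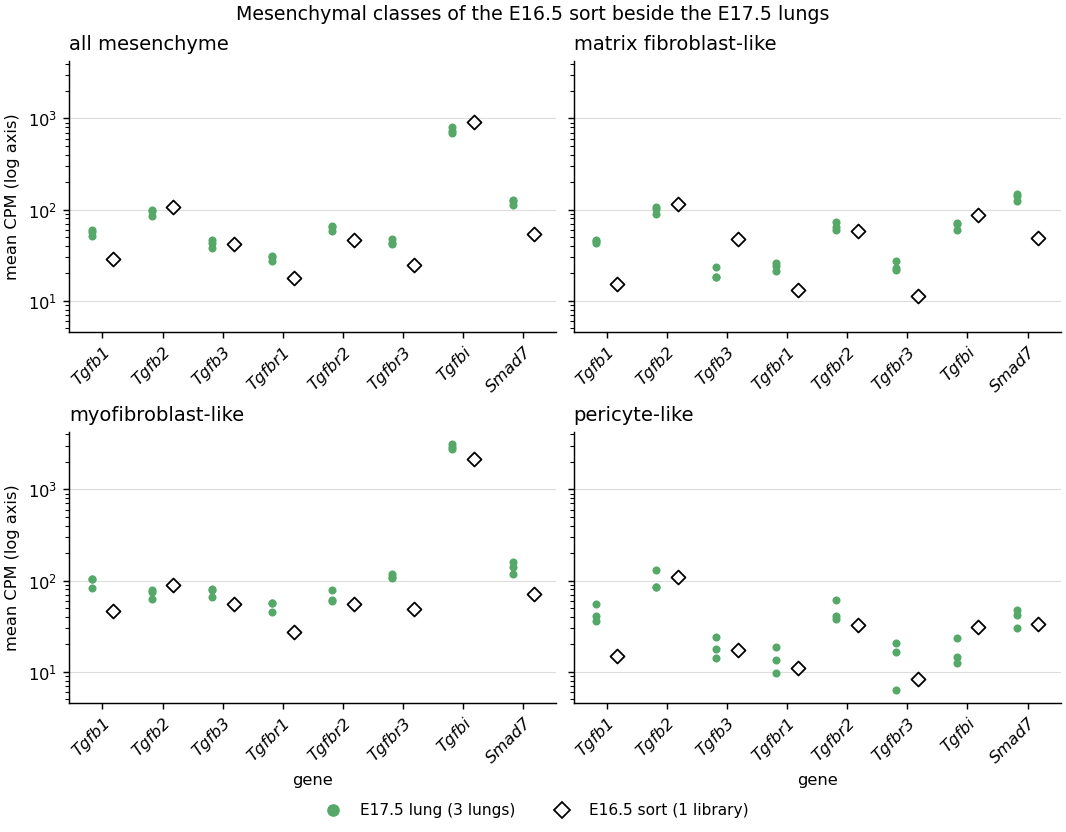
Mean CPM (vertical axes, logarithmic) of the 8 genes (horizontal axes) in all mesenchyme and in 3 mesenchymal classes of the 3 E17.5 lungs (filled points) and of the E16.5 sort (open diamonds, 1 library). Smad7 in matrix fibroblast-like cells is 49.4 CPM in the sort and 125 to 148 CPM in the lungs, while Tgfb2 is 115 and 90.2 to 108 CPM.

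Other measures differed between the sort and the lungs too, also in classes where these genes did not. The summed level of 10 immediate early genes in mesenchyme was 2132 CPM in the sort and 12493, 12947 and 13589.5 CPM in the lungs. In pericyte-like cells it was 1119 CPM against 8752, 11052 and 8081 CPM, while Smad7, at 33.5 CPM in the sort, lay inside the lung range. In matrix fibroblast-like cells the 7 immune markers summed to 3.65 CPM in the sort, with 3 of them at 0, and to 189, 172 and 163 CPM in the lungs, with none at 0. The part of either measure in the lower Tgfb1, Smad7 and Tgfbr3 of the sort was not tested. In matrix fibroblast-like cells the 8 myofibroblast markers summed to 542 CPM in the sort and to 281, 315 and 280 CPM in the lungs. Their part in the higher Tgfb3 of that class was not tested. The immune marker sum was also lower in myofibroblast-like cells of the sort (4.03 against 148, 177 and 158 CPM) and in its pericyte-like cells (61.2 against 300.3, 179 and 255 CPM). In the class named by adventitial markers this sum was 1.79 CPM against 240, 167 and 175 CPM. Tgfb1 in that class, at 29.6 CPM in the sort, lay inside the lung range. Tgfb2 was not apart in any of these classes. The smooth muscle-like cells of the sort (169 cells) had 209 CPM of Tgfb2 and 99.2 CPM of Tgfb3, beside 134 to 204 and 49.6 to 115 CPM in those of the lungs at the finer clustering. The sort's nearest cluster to the Col1a1/Tagln class (113 cells, led by Ptn, Figf and Fbln5) differed from it in leading genes, and had 32.1 CPM of Tgfb3 and 5.47 CPM of Tgfbr1 against lung ranges of 86.1 to 117 and 13.6 to 34.8 CPM, the 2 genes apart there (7.69% of all genes, 1.54% higher and 6.16% lower).

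Across the 13 lung classes, the genes most like a member were ranked by Pearson correlation of log2 levels among 5679 genes that reached 50 CPM in at least 1 class. The points share their 3 libraries and the classes were formed from part of the same genes, so these values are descriptions. The glutamate dehydrogenase gene Glud1 was closest to Tgfb1 (r = 0.97), Zfp579 to Tgfb2 (0.96), Ssbp2 to Tgfb3 (0.94) and Kif1b to Tgfbr2 (0.94). For Tgfbr3 the closest were Bach2 (0.97) and Ncald (0.96). Tgfbr1 and Tgfbi were each other's closest gene (r = 0.87), both being highest in myofibroblast-like and then macrophage-like cells. Among the members, Tgfb2 and Smad7 had r = 0.73, Tgfbr2 and Tgfbr3 0.73, and Tgfb1 and Tgfb2 -0.76.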

How the data were processed

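Single-cell profiles came from 1 sort of fibroblasts and 3 whole lungs. The deposited signal values are linear normalized expression per gene and cell. Cell Ranger 1.3.1 and Seurat 3.0.0 are named in the submitters' processing notes, without their roles. No source used here names the genome build. Every cell of a library summed to that library's median UMI total, and 100% of values were whole multiples of the cell's smallest value (tolerance 0.01), so UMI counts were recovered. The extract protocol in the labels speaks of lysis plates, so that droplets are inferred from the barcodes.

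The 8 genes and all lists were chosen with earlier results of these data known. Genes were divided by a seeded hash into 10519 clustering genes, which included all markers, and 10155 held-out genes, which included the 8 genes and the pathway list. Doublets were called per library by simulated doublets. The lungs together, and the sort, were clustered without batch correction on 2000 variable genes, 30 principal components and 15 neighbours (Leiden resolution 1, scanpy 1.11.5). The log2 of mean CPM plus 10, per class and lung, entered a linear model in limma 3.58.1, run in R 4.3.3, whose block term was the lung. Tests covered held-out genes that averaged 10 CPM or more. A gene counted as called when its p, adjusted by Benjamini-Hochberg over these genes, fell below 0.05. Each class was compared with the mean of the other classes of its family, whose differences sum to 0 and are therefore not independent. Residual degrees of freedom were 6 for the compartments and mesenchyme and 2 for the alveolar classes, beside median prior ones of 20.3, 19.1 and 19.3, so that the p-values rest largely on the spread pooled over genes.

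Classes of the same lung come from the same animal, and their deviations were correlated (means of 0.196 to 0.386 over compartments, 0.0759 to 0.145 in mesenchyme and 0.145 to 0.281 for the alveolar classes), which the block takes up. The genes named were all 8 members, up to 3 pathway genes called in each direction per comparison, and the nearest genes by correlation, and some genes that this rule picks are not reported here. Named clusters within a class, the finer classes and the promoter motif were picked after their values were seen. edgeR 4.0.16 on summed UMIs, other filters, scalings, clusterings and each lung left out were alternatives. Python 3.11.15 was used.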

Additional observations from a re-analysis of the deposited data

How the results depend on the processing

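Of 1036 values of the 8 genes under 15 alternatives (the filter at 50 CPM gave 42 and each other one 71), 975 kept their direction and side of the threshold, 47 lost their call, 10 gained one and 4 changed sign. At Leiden resolutions 0.5 and 2 the compartment comparisons returned the main counts unchanged, and at 0.5 the mesenchymal ones did too. These repeats are among the 975 and were no separate check. The sign changes were Tgfbr2 in immune cells under median-of-ratios scaling (0.043) and in edgeR (0.016), and, at Leiden resolution 2, Tgfbr2 (0.73) and Tgfb2 (-0.88) in the class named by adventitial markers. At that resolution the smooth muscle-like cells leave the class and join the classes it is compared with, so the contrast is not the main one. For the Tgfbr2 changes in immune cells the cause was not tested.

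Without a filter on low values the counts of genes called were 5026, 5162, 5131 and 5928 of 9866 tested in epithelium, endothelium, mesenchyme and immune cells. In the other 5 comparisons the counts stayed near those with the filter (1093, 1336, 1017, 1657 and 1454). They came from 8651 genes tested in mesenchyme and 8673 in the alveolar classes, instead of 4030 and 3670, so the shares called were lower. At a filter of 50 CPM the counts were 1110, 1160, 1125 and 1219 of 1351 tested in the compartments. They were 606, 685, 552 and 760 of 1402 in matrix fibroblast-like, myofibroblast-like, Col1a1/Tagln and pericyte-like cells and 676 of 1219 between AT1-like and AT2-like cells. The counts were lower but the shares called higher than in the main setting. With clustering genes tested too the counts were 6356, 6623, 6428 and 7190 of 8359, then 2285, 2678, 2111 and 3151 of 8100, and 2916 of 7398. In the Col1a1/Tagln class, leaving out 1 lung gave 684 to 816 calls instead of 1029. In the same order, edgeR called 4591, 4330, 4624 and 5096 of 6526 genes, 1621, 1604, 882 and 1367 of 4192, and 1706 of 5182.

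Without the replicate block the counts were 3012, 3201, 3050, 3489, 1060, 1275, 940, 1491 and 1279, and the calls lost were Smad7 in epithelium and endothelium, Tgfbr3 in matrix fibroblast-like and Tgfbr2 in pericyte-like cells. At 1.5-fold beyond the lungs, the sort had 4 of the 8 genes apart in mesenchyme, 5 in matrix fibroblast-like, 4 in myofibroblast-like and 4 in the class named by adventitial markers. Leaving out 1 lung gave 1 to 2 genes apart in myofibroblast-like and in pericyte-like cells, and resolution 2 gave 1 in the adventitial-named class. Shares of all genes apart are given only for the main 2-fold setting. These other counts therefore have no background beside them and are not read as a result about the 8 genes. Depth limits low levels: classes under 100 cells rest on few UMIs per gene, and the sort is 1 library.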
